A study of Mus musculus with 5 samples.

Results

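Clusters of distal Lsd1 peaks are stretches of the mouse genome in which several Lsd1 binding regions lie close together, away from transcription start sites (TSSs). They were chosen from the measured Lsd1 peak calls of 2 MG tumors. Of 30367 Lsd1 peaks in tumor 39, 24627 overlapped an Lsd1 peak of tumor 41, and 8989 of these lay more than 2000 bp from every annotated TSS. Neighbours with a gap of 12.5 kb or less were joined, and groups of 3 or more were kept. This left 2774 peaks, the constituents, in 664 clusters, which is 30.9% of the 8989 distal peaks. The other 6215 distal peaks, 4339 standing alone and 1876 in pairs, and the 15638 peaks found in both tumors within 2000 bp of a TSS serve as comparisons. In all, the 4 peak lists of the study hold 125494 peaks.

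MG tumors are medulloblastomas made by infecting cerebellar neural stem cells (prominin-1-positive, early postnatal C57BL/6 mice) with retroviruses that encode Gfi1 and a stabilised mutant of Myc, and transplanting them into immunodeficient NSG mice. Chromatin of tumor 39 (replicate 1) and tumor 41 (replicate 2) was immunoprecipitated with rabbit polyclonal antibodies to Gfi1 and to Lsd1, so that both factors were measured in the same tumors and every library carries both retroviral genes. No MG tumor without Gfi1 was profiled, and the listed input control is a pool of MGB tumors, which carry Gfi1b in place of Gfi1. Whether that input served for all 4 libraries is not given in the sources used here. The lists hold 36836 and 25078 Gfi1 peaks and 30367 and 33213 Lsd1 peaks in tumors 39 and 41, each with a score whose definition is not given. A score is therefore stated here as a percentile within its own list. Where several peaks of another list overlapped an Lsd1 peak of tumor 39, the highest of their percentiles was taken. Read counts are not part of the lists, so no precision per peak can be given.

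Lsd1, the product of Kdm1a, removes methyl groups from lysine 4 of histone H3 and works in a complex with CoREST and histone deacetylases. It does not read DNA sequence by itself and is brought to chromatin by partners. One of them is Gfi1, a zinc finger repressor whose SNAG domain binds Lsd1 and which recognises DNA with an AATC core. Away from promoters Lsd1 is known from enhancers, and dense groups of enhancers often lie around genes that set a cell's identity.

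The DNA of the strongest constituents gives a picture of what these regions are made of. The following windows are the central 200 bp of the constituent with the highest mean score percentile over the 4 lists (0 where a list had no peak) in 5 of the 12 largest clusters and, for contrast, in a cluster at Kdm4b that had no Gfi1 peak in tumor 41. They are plus-strand sequence of GRCm38 (mm10) from the RefSeq genome. Capitals mark the E-box CAGCTG, a site of neural bHLH factors. The lists give no peak summits, so that the centre is that of the peak interval.
Macrod1 cluster, chr19:7137128-7137327: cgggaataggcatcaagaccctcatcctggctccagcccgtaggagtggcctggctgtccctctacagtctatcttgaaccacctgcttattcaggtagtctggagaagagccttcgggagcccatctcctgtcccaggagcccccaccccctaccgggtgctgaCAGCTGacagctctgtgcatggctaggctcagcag
Arid1b cluster, chr17:5323911-5324110: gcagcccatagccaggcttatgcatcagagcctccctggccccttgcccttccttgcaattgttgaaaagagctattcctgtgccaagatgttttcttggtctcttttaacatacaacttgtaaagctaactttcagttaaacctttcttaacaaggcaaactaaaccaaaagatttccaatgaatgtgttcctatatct
Casz1 cluster, chr4:148859840-148860039: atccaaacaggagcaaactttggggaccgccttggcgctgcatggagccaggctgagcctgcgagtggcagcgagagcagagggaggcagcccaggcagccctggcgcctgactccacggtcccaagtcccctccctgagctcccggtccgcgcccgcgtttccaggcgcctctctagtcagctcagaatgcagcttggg
Foxo6 cluster, chr4:120270781-120270980: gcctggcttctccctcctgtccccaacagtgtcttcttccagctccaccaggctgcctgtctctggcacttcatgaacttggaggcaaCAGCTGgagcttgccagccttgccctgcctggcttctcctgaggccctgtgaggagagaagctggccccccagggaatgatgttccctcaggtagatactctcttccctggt
Nfatc2 cluster, chr2:168527119-168527318: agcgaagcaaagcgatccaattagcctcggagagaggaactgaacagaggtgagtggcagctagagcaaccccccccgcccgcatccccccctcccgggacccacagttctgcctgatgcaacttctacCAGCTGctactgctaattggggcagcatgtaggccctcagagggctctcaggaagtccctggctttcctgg
Kdm4b cluster, chr17:56349229-56349428: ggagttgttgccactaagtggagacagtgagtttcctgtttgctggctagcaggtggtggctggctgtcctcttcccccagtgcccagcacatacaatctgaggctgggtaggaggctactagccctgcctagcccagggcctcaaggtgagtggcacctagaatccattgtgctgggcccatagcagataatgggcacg

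The windows of the Macrod1, Foxo6 and Nfatc2 clusters each held 1 CAGCTG E-box, and those of the Arid1b, Casz1 and Kdm4b clusters held none. Over all constituents 16.5% held CAGCTG in the central 200 bp, so that the windows shown are not typical in this. None of the 6 held the Gfi1 core AATCNC on either strand, which 19.0% of all constituents held there, the strongest one at Ksr1 among them. Their base composition ranged widely, from 41% GC and 0 CpG in the Arid1b window to 66.5% GC and 12 CpG in the Casz1 window.

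The largest cluster, with 16 constituents over 87941 bp (chr19:7110117-7198057), lay inside Macrod1, which encodes a mono-ADP-ribosyl hydrolase, and 2407 bp from the closest protein-coding TSS, that of the deubiquitinase gene Otub1. Next came a cluster of 15 in Arid1b, a subunit of the BAF chromatin remodelling complex (chr17:5248496-5332369), whose closest TSS, of Ldhal6b, was 86398 bp away. A cluster of 14 covered part of Auh and the DNA beside it, and spanned 103217 bp, more than any other cluster. Another cluster of 14 lay 302112 bp from Sox9, which encodes a transcription factor of neural stem cells and glia (chr11:113084336-113166223), inside the non-coding gene 2610035D17Rik. Casz1, a zinc finger factor, held 13 constituents, while Rbfox3, a splicing factor of mature neurons, and Lnx2, a ubiquitin ligase, held 12 each. Clusters of 11 lay at Ksr1, a scaffold of the Ras-MAPK pathway, at the transcription factor genes Bcl11b, Foxo6 and Nfatc2, and at the kinase gene Cdc42bpb. A sixth cluster of 11, at Farp1, with 6 constituents that had Gfi1 in both tumors, had the smallest summed peak width of these and fell outside the 12. In 10 of these 12 clusters no constituent lay between genes, so that most large clusters sat within gene bodies.

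Gfi1 was called on most constituents of these clusters. In the Macrod1 cluster 14 of 16 constituents overlapped a Gfi1 peak in tumor 39 and 9 in tumor 41, and 8 did in both. In the Arid1b cluster the counts were 14, 13 and 13 of 15, and in the Sox9 cluster 13, 12 and 12 of 14. At Bcl11b and at Foxo6 all 11 constituents had Gfi1 in tumor 39 and 9 had it in tumor 41. The lowest count in both tumors was at Nfatc2, with 6 of 11. In none of the 12 clusters did every constituent have Gfi1 in both tumors, and in none was the share below the 8 of 16 at Macrod1.

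**Figure D1:**
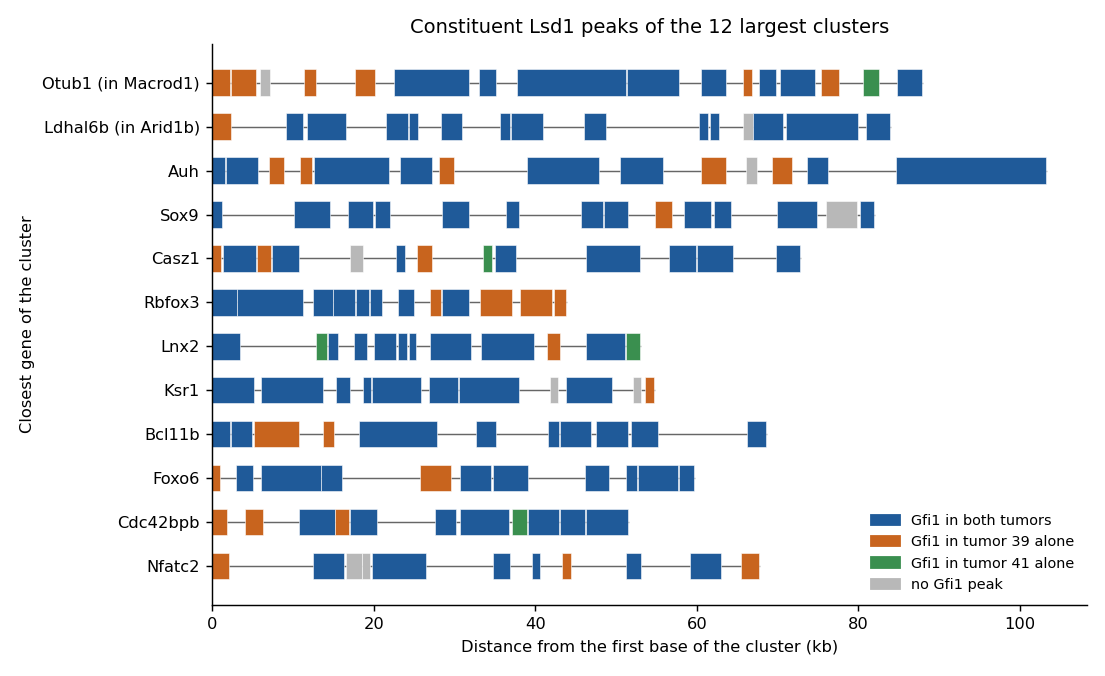
Each line is 1 of the 12 largest clusters, with its constituent Lsd1 peaks drawn to scale as boxes by distance in kb from the first base of the cluster. Colour gives the Gfi1 overlap of each constituent; most boxes are blue (Gfi1 in both tumors), and boxes with Gfi1 in 1 tumor are more often tumor 39 than tumor 41.

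Within a cluster the constituents were far from equal. In the Arid1b cluster the strongest constituent (chr17:5319544-5328478, 8935 bp wide) stood at Lsd1 percentiles 98.9 and 96.1 in tumors 39 and 41, and at Gfi1 percentiles 91.9 and 98.9. A neighbour of 1237 bp (chr17:5314223-5315459) stood at Lsd1 percentiles 28.5 and 24.0 and overlapped no Gfi1 peak. The constituent of Nfatc2 at chr2:168523866-168530572 was high in every library, with Lsd1 percentiles of 99.2 and 99.8 and Gfi1 percentiles of 94.2 and 96.1. The constituent just before it (chr2:168522672-168523676, 1005 bp wide) stood at Lsd1 percentiles of 23.6 and 84.8 and had no Gfi1 peak. In the Sox9 cluster the strongest constituent (chr11:113112815-113116102) stood at 90.2 and 75.5 for Lsd1 and at 69.0 and 71.3 for Gfi1, while a constituent of 3903 bp at percentiles 47.0 and 65.0 had no Gfi1 peak in either tumor. In each of these clusters the strongest region had Gfi1 and a weaker one had none, but rank did not separate the regions with Gfi1 from those without. In the Arid1b cluster, constituents at tumor 39 Lsd1 percentiles 12.7, 15.9 and 22.2 had Gfi1 in both tumors. In the Sox9 cluster, so did a constituent at Lsd1 percentiles 12.5 and 47.3 in tumors 39 and 41.

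Neighbouring constituents were in part pieces of a single peak of another list. Of the 2774 constituents, 586 (21.1%) shared an overlapping Lsd1 peak of tumor 41 with another constituent, as the constituents at percentiles 44.4 and 23.6 in tumor 39 beside the Nfatc2 peak did. In terms of tumor 41, 52 clusters (7.83%) rested on fewer than 3 Lsd1 peaks and 4 on a single peak. Of the constituents with Gfi1 in tumor 39, 18.1% shared the Gfi1 peak with another constituent, and in tumor 41 11.4% did. In terms of Gfi1 peaks, 219 clusters (33.0%) rested on fewer than 3 in tumor 39 and 307 (46.2%) in tumor 41. Constituents are thus not independent regions, and counting intervals over them are too narrow.

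The clusters ranged from 3669 to 103217 bp in span, with a median of 18394 bp, and Lsd1 peaks covered a median of 45.8% of it. Together they spanned 14.8 Mb, of which 6.94 Mb was peak. In number of constituents, 343 clusters held 3, 148 held 4 and 173 held 5 or more, 18 of them 10 or more. The rule fixes these sizes from the Lsd1 positions, so they are a description. Around the thresholds, the largest gap joined was 12499 bp and the smallest not joined was 12541 bp. The constituents closest to a TSS lay at 2001 bp, and peaks at 2000 bp were left out. Although every constituent was distal, the span of 179 clusters (27.0%) held a TSS between constituents.

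With the tumors exchanged, so that peaks of tumor 41 were joined, 3401 constituents formed 769 clusters. These overlapped 577 of the 664 clusters (86.9%), and 169 of the 173 clusters with 5 or more constituents (97.7%).

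Constituents were wider than other distal peaks, with median widths of 1889.5 and 1520 bp, while peaks near TSSs had a median of 2281 bp. A width of 6000 bp or more was reached by 142 constituents (5.12%) and by 73 other distal peaks (1.17%), and the widest constituent, of 29116 bp, exceeded most whole clusters in length. The median Lsd1 percentiles of constituents were 46.1 in tumor 39 and 52.5 in tumor 41, against 41.4 and 43.7 for other distal peaks and 70.4 and 75.9 near TSSs. The tumor 41 values take the highest of the overlapping peaks, which wide peaks can have more of. With the mean of the overlapping peaks the tumor 41 medians were 49.3 for constituents, 42.7 for other distal peaks and 73.5 near TSSs. In the upper 20% of the tumor 39 score lay 274 constituents (9.88%), 5.31% of other distal peaks and 35.0% of peaks near TSSs. The clusters were thus built mainly of peaks of middle rank. As these values come from the lists that chose the constituents, no test was made.

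Gfi1 was not used to choose the constituents. In tumor 39, 2207 of 2774 constituents overlapped a Gfi1 peak by at least 1 bp, or 79.6%, with an exact (Clopper-Pearson) 95% interval of 78.0% to 81.0% that covers counting error alone. In tumor 41 the number was 1832, or 66.0% (64.2% to 67.8%). The tumors differed by more than the counting error, and their mean was 72.8% ± 9.56 (SD, n = 2). In both tumors 1625 constituents, 58.6%, overlapped Gfi1, against 53.1% of all distal Lsd1 peaks. Gfi1 was found in tumor 39 alone on 582 constituents, in tumor 41 alone on 207 (7.46%), and in neither on 360 (13.0%).

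Other distal peaks overlapped Gfi1 in 72.2% and 62.6% of cases in tumors 39 and 41, and peaks near TSSs in 95.2% and 85.1%. The clustered share was higher than the other distal share by 7.36 percentage points in tumor 39 and by 3.45 points in tumor 41, a mean of 5.41 ± 2.77 points (SD, n = 2). The direction was the same in both tumors. The difference was smaller than the SD of 9.56 points between the tumors' own shares, but it was taken within each tumor. Its own spread is therefore the 2.77 points, which 2 tumors give only roughly. An exact sign-flip test over 2 tumors cannot give a two-sided p below 0.5, so no test was run.

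Peak width moved with this difference. Distal peaks were split into 5 groups of equal number by width, from 587 to 1119 bp in the narrowest to 2637 bp and more in the widest. In the narrowest group 53.9% of constituents and 49.3% of other distal peaks overlapped Gfi1 in tumor 39, and in the widest 96.9% and 95.6% did. For tumor 41 these shares were 40.8% and 46.3% in the narrowest and 87.8% and 83.8% in the widest group. Within groups of like width the difference averaged 1.37 points in tumor 39, with constituents higher in 4 of 5 groups, and -2.64 points in tumor 41, with constituents higher in 1 of 5. At like width, therefore, constituents on average did not overlap Gfi1 more often in tumor 41. By Lsd1 score in place of width the averages were 4.68 points (5 of 5 groups higher) and -0.37 points (3 of 5 higher).

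The base composition of the peak centre (400 bp) went with Gfi1 overlap differently in the tumors. In tumor 39 the share of constituents with Gfi1 was 66.5% in the group with the lowest GC content and 93.6% in that with the highest. In tumor 41 the shares in the same groups were 69.4% and 69.7%, and between 62.5% and 65.8% in the groups between. Other distal peaks had 57.8% and 89.8% in tumor 39, while in tumor 41 their shares were 68.9%, 63.6%, 60.7%, 57.3% and 61.8% from the lowest to the highest GC content, a decline over the first 4 groups. Within GC groups the mean difference between clustered and other peaks was 6.63 points in tumor 39 and 3.70 points in tumor 41. The part of GC content in the difference between the tumors was not tested.

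**Figure D2:**
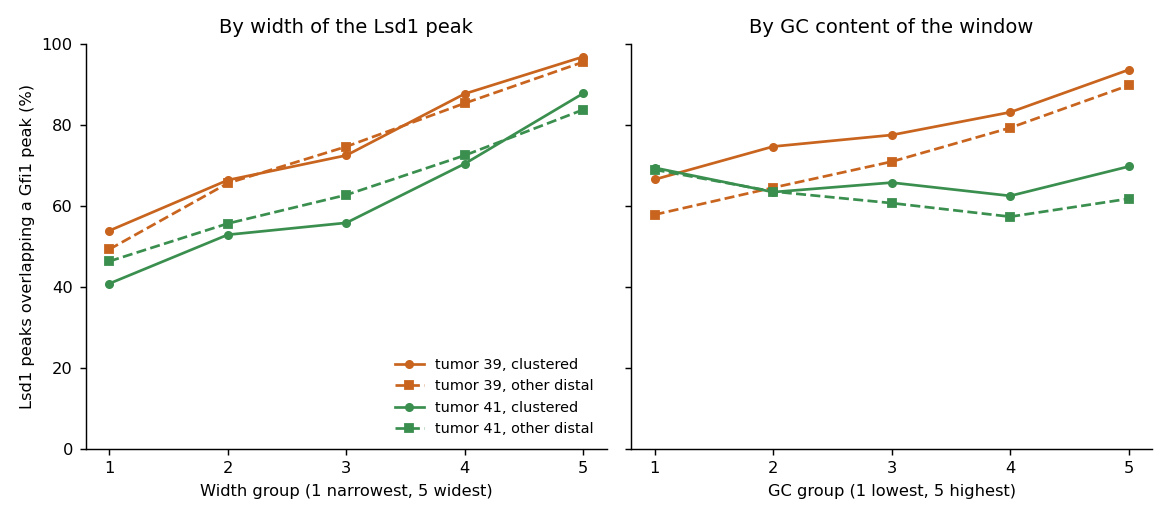
Share of distal Lsd1 peaks that overlap a Gfi1 peak (y axis, percent) in 5 groups of equal number by peak width (left) and by GC content of the central 400 bp (right), for each tumor and for clustered (solid) and other distal peaks (dashed). All 4 lines rise with width, and the clustered and other lines of a tumor lie close together; with GC content the tumor 39 lines rise, from 66.5% to 93.6% for clustered peaks, while the tumor 41 line of other distal peaks falls from 68.9% to 57.3% over the first 4 groups.

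Gfi1 overlap was higher in the larger clusters. The share with Gfi1 in both tumors was 49.3% for distal peaks standing alone, 53.6% in pairs, 55.0% and 54.4% in clusters of 3 and 4, 64.4% in clusters of 5 to 6 and 63.4% in clusters of 7 or more. The median width went up with it, from 1463 bp for single peaks to 2290 bp in clusters of 7 or more, and its part in the increase was not tested.

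**Figure D3:**
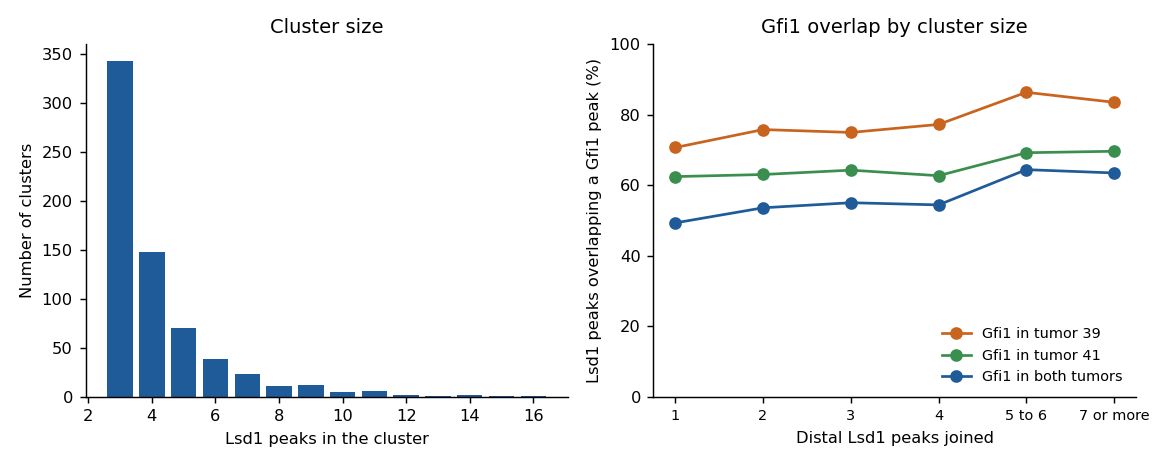
Left, number of clusters by the number of constituent Lsd1 peaks, from 343 clusters of 3 to 1 cluster of 16. Right, share of distal Lsd1 peaks overlapping a Gfi1 peak (percent) by the number of peaks joined, for tumor 39, tumor 41 and both; the points for both tumors lie at 49.3% for single peaks and at 63.4% for clusters of 7 or more.

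Counted by cluster, 662 of 664 held at least 1 constituent with Gfi1 in at least 1 tumor, and 620 (93.4%) at least 1 with Gfi1 in both. Every constituent had Gfi1 in both tumors in 83 clusters, and none had in 44 (6.63%). The largest cluster with Gfi1 throughout lay in Ccdc85c, 6512 bp from the TSS of the cyclin gene Ccnk, with 7 constituents that covered 91.6% of its span. Clusters of 6 with Gfi1 throughout lay at Bahcc1, at Necab2 and Osgin1, at the G protein subunit gene Gng7, and at Prrc2b. The strongest constituent beside Bahcc1 (chr11:120302429-120309780) stood at Lsd1 percentiles 98.7 and 90.3 and Gfi1 percentiles 96.2 and 98.2.

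At the other end stood a cluster of 5 at Anapc13, a subunit of the anaphase-promoting complex, in which 2 constituents had Gfi1 in tumor 39, 1 had it in tumor 41 and none had it in both. Of 9 clusters of 4 in which no constituent had Gfi1 in both tumors, the 4 with the largest summed peak width lay at Itpk1, at Slain2 and, as a pair, at Kdm4b, which encodes a demethylase of lysine 9 of histone H3. In both Kdm4b clusters (chr17:56330222-56361228 and chr17:56399233-56408350) all 4 constituents had Gfi1 in tumor 39 and none in tumor 41. In the second of these clusters, neighbouring constituents shared Gfi1 peaks of tumor 39, at percentiles 68.6 and 55.7, so that the 4 calls are not independent. In all, 11 clusters had Gfi1 on every constituent in tumor 39 and on none in tumor 41, and 2, at Tprg and Mbnl1, had the reverse. The strongest constituent of the first Kdm4b cluster, shown above, stood at Lsd1 percentiles 57.8 and 48.4 and at Gfi1 percentile 57.2 in tumor 39. The Gfi1 list of tumor 39 is the longer of the pair, and the part of list length in this asymmetry was not tested.

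When Gfi1 peaks were joined by the rule used for Lsd1, 20685 peaks found in both tumors gave 6605 distal ones and 1931 in 451 clusters. Of the Lsd1 clusters 303 (45.6%) overlapped a Gfi1 cluster, and of the Gfi1 clusters 309 (68.5%) overlapped an Lsd1 cluster.

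Constituents lay in introns more often than other distal peaks, with 1655 of 2774 midpoints (59.7%) against 49.4%. Exons held 5.95% of constituents and 8.96% of other distal peaks, and the DNA between genes 34.4% and 41.6%. In each of these positions the share with Gfi1 in both tumors was close to the mean, with 58.8% in introns, 58.8% in exons and 58.2% between genes. Taken by tumor the positions differed, and in opposite directions for exons. The shares in introns, in exons and between genes were 78.9%, 87.9% and 79.2% in tumor 39, and 67.6%, 61.8% and 64.0% in tumor 41. Chromosomes 4, 2 and 11 held the most clusters, with 76, 62 and 58, while chromosome X held 1 and chromosome Y none. Per 10 Mb of length, chromosomes 4 and 11 were highest, with 4.86 and 4.75 clusters. Chromosome 2 had 3.40 per 10 Mb, below chromosomes 15 (3.94), 17 (3.90) and 5 (3.62). On chromosome 3, with 300 distal peaks, 14.3% were clustered, against 306 of 785 on chromosome 4. The surroundings of constituents, measured over 20 kb, had a median GC content of 49.8%, against 47.4% for other distal peaks and 46.9% for peaks near TSSs.

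By the closest protein-coding TSS the clusters were assigned to 607 genes, 2.77% of 21911, and 493 genes, 2.25%, overlapped a cluster. The median distance to the TSS was 7261 bp, and 26 clusters lay more than 100000 bp away. Genes with a cluster usually carried Lsd1 and Gfi1 at their promoters too. A peak within 1000 bp of a TSS was present in both tumors for Lsd1 in 569 of the 607 genes (93.7%) and for Gfi1 in 540 (89.0%). For the 3583 genes closest to other distal peaks alone the shares were 80.2% and 74.5%, and for all protein-coding genes 57.7% and 53.9%. Genes with a cluster were also longer, with a median of 44.6 kb against 31.2 kb and 17.4 kb in these groups, and the part of length in the shares was not tested.

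Several genes held more than 1 cluster, and the following were chosen after their values were seen. Arid1b overlapped 5 clusters with 38 constituents in all, of which 29 had Gfi1 in tumor 39, 34 in tumor 41 and 27 in both. Gse1, whose product is found with the Lsd1-CoREST complex, also overlapped 5 clusters, with 30 constituents of which 28, 21 and 21 had Gfi1. Zmiz1, a coactivator, was the closest gene of 5 clusters with 20 constituents.

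The genes assigned a cluster, by the closest TSS, included members of several signalling pathways of neural development. Some of these clusters lay far from the gene or in another gene. The shares in the lists below are descriptions without a test, and that over all protein-coding genes was 2.77%. Short lists cannot be set firmly against it, whether their count is high or low. Genes with a cluster were also longer, and the part of length in these shares was not tested. Of 23 genes of the BMP and TGF-beta pathway, which restrains growth of granule neuron progenitors, 6 were assigned a cluster (26.1%), against 2.77% of all protein-coding genes. These were the receptor Tgfbr3, the ligand Bmp7, the signal transducers Smad2 and Smad3 and the inhibitory Smad6 and Smad7. The clusters of Bmp7 and Smad2 lay 99985 and 79813 bp from the TSS, and that of Smad2 overlapped Zbtb7c. Smad6 held 7 constituents in its introns (chr9:63955020-63999181), with Gfi1 in both tumors on 5 of them and in neither on 2. A cluster of 4 at Smad3 had Gfi1 on all 4 in tumor 39 and on 2 in tumor 41. A further one of 3, 117358 bp from its TSS, had Gfi1 on all 3 in tumor 39 and on none in tumor 41. Of the pathway genes that the study tested, Bmpr1a and Smad4 had their nearest clusters 3826458 and 1674292 bp away.

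The list of Notch and related genes followed with 4 of 20 (20%), namely the receptor gene Notch1, the repressors Hes1 and Hes6, and Id3. Id3, an inhibitor of bHLH factors, was on this list but is not a component of the Notch pathway. Of this list only Hes1 overlapped a cluster, and the cluster assigned to Hes6 overlapped Per2. Id3 had 2 clusters between genes, with 4 and 3 constituents, and all 7 had Gfi1 in both tumors (chr4:136100172-136118214 and chr4:136149781-136161303). The stronger of these had median Lsd1 percentiles of 74.8 and 71.4 in tumors 39 and 41. At Notch1, by contrast, all 4 constituents had Gfi1 in tumor 39 and 1 in tumor 41. In the Sonic hedgehog pathway, which drives division of granule neuron progenitors, 2 of 12 genes (16.7%) were assigned clusters. The effector Gli2 had 3 clusters with 13 constituents, of which 3 had Gfi1 in both tumors, and the receptor Ptch1 had 3 constituents, of which 1 did (chr13:63548167-63556940). Of 22 Wnt genes Ctnnb1 and Wnt7b were assigned a cluster (9.09%), but no gene of this list overlapped one. The cluster of Ctnnb1 lay 119852 bp from its TSS. The 4 constituents near Wnt7b included 1 at Lsd1 percentile 98.2 in tumor 39.

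Of 4 NFI genes, transcription factors of granule neuron maturation, Nfia and Nfic were assigned a cluster, and Nfix overlapped a cluster of 4, all with Gfi1 in both tumors, that was assigned to G430095P16Rik. The 6 constituents in introns of Nfia (chr4:97920221-97953184) had Gfi1 on 3 in tumor 39, 5 in tumor 41 and 3 in both. A second cluster of 3 inside Nfia, 4360 bp from its TSS, had Gfi1 on all 3 in both tumors but was assigned to the neighbouring E130114P18Rik. Among 31 POU and other neural transcription factors 6 were assigned clusters (19.4%). They were led by Bcl11b with 11 constituents, Foxp1 with 11 in 2 clusters and Foxp4 with 8 in 2 clusters. Of 24 homeobox genes of the cerebellum and hindbrain 3 were assigned (12.5%), among them Lmx1b and Irx5, each with 4 constituents. Of 11 Sox genes Sox9 was assigned, with clusters of 14 and 3, and of 16 proneural bHLH genes and 5 Zic genes none was, but these lists are too short to be set against the share over all genes.

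Immediate early genes, which respond quickly to signals, had clusters in 5 of 16 cases, at Fosb, Egr1, Btg2, Maff and Nr4a1. This is 31.25%, against 2.77% of all protein-coding genes, in a short list and without a test. Btg2, an antiproliferative gene, stood beside 7 constituents (chr1:134041380-134088096), all with Gfi1 in tumor 39 and 3 with it in tumor 41. The cluster at Fosb was among the highest, with median Lsd1 percentiles of 90.5 and 75.5. Of 22 cell cycle genes 3 were assigned (13.6%), the cyclin gene Ccnd3, the inhibitor gene Cdkn1b and E2f2. Of 12 genes of the Myc network Mxi1 and Mlxip were (16.7%). Mxi1, a Max partner that opposes Myc, had 2 clusters with 10 constituents, of which 7 had Gfi1 in both tumors.

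Of 18 genes of the Gfi1 and Lsd1 machinery itself, 1 (5.56%), Snai1, another SNAG domain factor, was assigned a cluster, against 2.77% of all protein-coding genes. A TSS within 100000 bp of a cluster was found for 5 of the 18, and for 2172 of all 21911 protein-coding genes. The cluster at Snai1 was of 3 constituents with Gfi1 on all in both tumors. Gfi1, Gfi1b, Kdm1a, Rcor1, Rcor2, Rcor3 and Myc were assigned none. The nearest cluster lay 220907 bp from Gfi1, 355692 bp from Kdm1a and 6837472 bp from Myc, while Rcor2 stood 69267 bp from the cluster of 16 in Macrod1. Fbxo5 and Lrig3, further genes that the study tested, had none either. Of 24 receptor tyrosine kinase and growth factor genes 1, Igf1r, was assigned a cluster (4.17%), and Fgfr2 overlapped clusters assigned to other genes. Of 31 axon guidance genes Nrp2 was assigned (3.23%), and of 25 neuronal adhesion and synapse genes Ncam1. These shares are close to that over all genes.

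The lists also covered markers of other cells that the tumor could hold. None of 12 genes each for microglia, astrocytes, Purkinje cells and erythroid cells was assigned one, and 1 of 12 was for endothelial cells (Erg) and for oligodendrocytes (Mbp). Lists of 12 genes are too short to be set against the 2.77% of all genes. Of 12 granule neuron markers Rbfox3 and Grm4 were assigned clusters. Peak lists do not measure how many cells of a type a tumor holds.

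**Figure D4:**
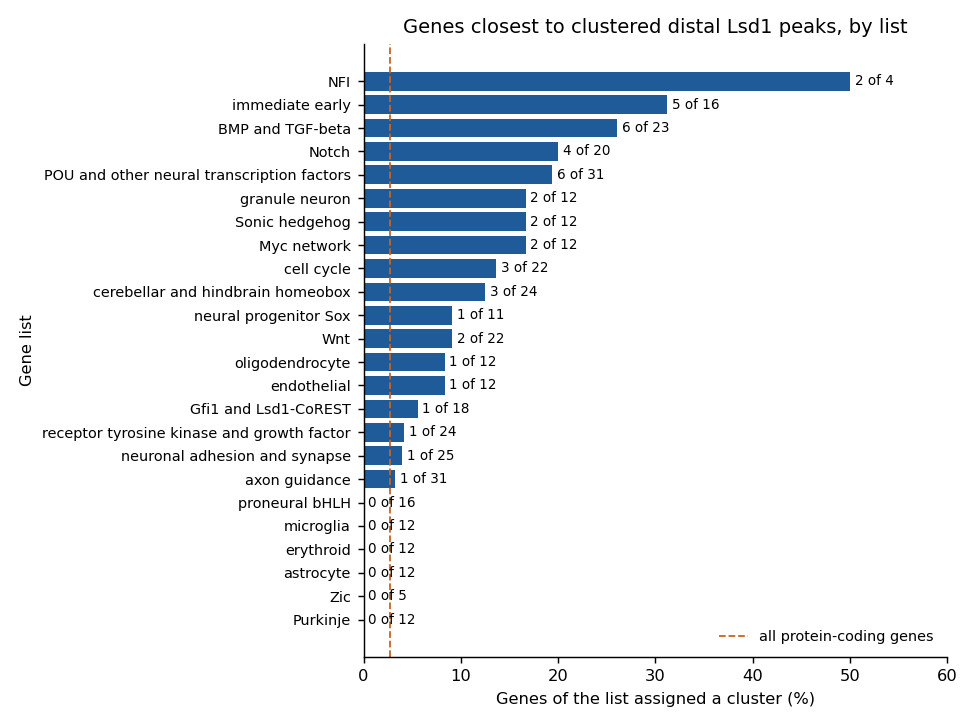
Share of the genes of each list that were the closest protein-coding gene to a cluster (x axis, percent), with the number of genes beside each bar. The dashed line is the share over all protein-coding genes, 2.77%; the NFI list holds only 4 genes, and 6 lists have no gene with a cluster.

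In the central 400 bp the recognition sequences of Gfi1 were about as common in constituents as in other distal peaks. The core AATCNC, read on both strands, was present in 36.6% of constituents, 37.7% of other distal peaks and 33.7% of peaks near TSSs. The E-boxes CAGCTG and CAGATG were found in 30.0% and 32.6% of constituents, in 30.0% and 32.1% of other distal peaks, and in 22.7% and 19.6% of peaks near TSSs. The Myc E-box CACGTG was found in 7.93%, 9.59% and 9.51%. A difference of -5.95 percentage points was seen for the NFI recognition sequence TTGGCA, which was in 25.2% of constituents, 31.2% of other distal peaks and 16.6% of peaks near TSSs. It was less common in constituents in 4 of 5 groups of like GC content, and 24.96% against 24.84% in the group with the highest GC content. These are descriptions of letters in a window, without a test, because peaks are not replicates.

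A longer sequence around AATC, 10 bases from AAATC on one side to GC on the other with 3 free bases between, was searched over whole constituents. The last C of the core AATCNC falls on a free base, so that a match need not hold the Gfi1 core. The longer sequence was present in 435 of the 1625 constituents with Gfi1 in both tumors (26.8%) and in 35 of the 360 without Gfi1 (9.72%). Since the former were wider (median 2413 against 1267 bp), the rate per length is the fairer comparison, and it was 1.06 against 0.71 matches per 10 kb. The core AATCNC went the other way, as it was present in the central 400 bp of 35.5% of constituents with Gfi1 in both tumors and of 39.7% of those without Gfi1. The order was the same in windows of 200 bp (18.3% and 20.3%) and of 1000 bp (68.7% and 74.2%). The median GC content of the central 400 bp also differed, at 52.75% with Gfi1 in both tumors and 50.75% without Gfi1. Among all constituents the core was in 49.2% of the group with the lowest GC content and in 25.1% of that with the highest. The part of GC content in the order of the core was not tested. The following stretches of 40 bases, with the match in capitals in either orientation, come from constituents of the large clusters. They were chosen to show matches in strong constituents with Gfi1 in both tumors, and lie on the plus strand of GRCm38 (mm10). The Sox9 and Foxo6 matches, of the form AAATCCAGGC, do not hold the core AATCNC.
Arid1b cluster, chr17:5325059-5325098: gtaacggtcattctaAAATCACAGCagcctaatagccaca
Sox9 cluster, chr11:113096681-113096720: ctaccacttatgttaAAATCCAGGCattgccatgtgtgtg
Bcl11b cluster, chr12:107945911-107945950: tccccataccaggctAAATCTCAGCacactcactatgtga
Foxo6 cluster, chr4:120227475-120227514: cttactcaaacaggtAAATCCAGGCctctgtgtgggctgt
Lnx2 cluster, chr5:147057335-147057374: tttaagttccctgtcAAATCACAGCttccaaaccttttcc

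The Arid1b match lay in the constituent at Gfi1 percentiles 91.9 and 98.9, and the Bcl11b match in one at 80.8 and 90.7. Other matches were part of a repeated sequence. A single form, AAATCCCAGC, made up 178 of the 702 matches in all constituents, and 147 of these 178 (82.6%) lay in bases that the RefSeq genome marks as repeats. No other form was found more than 33 times, and that one lay in repeats in 3 of 33 cases. The following matches of this form, from 4 of the largest clusters, are shown because their surroundings are nearly the same.
Macrod1 cluster, chr19:7172991-7173030: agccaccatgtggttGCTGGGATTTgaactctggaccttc
Casz1 cluster, chr4:148868847-148868886: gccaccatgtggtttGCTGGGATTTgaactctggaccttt
Ksr1 cluster, chr11:79137860-79137899: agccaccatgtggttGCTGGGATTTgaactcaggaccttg
Cdc42bpb cluster, chr12:111351920-111351959: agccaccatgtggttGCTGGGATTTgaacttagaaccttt

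Of these, the constituents in Macrod1, Casz1 and Cdc42bpb had Gfi1 in both tumors and that in Ksr1 in neither. Repeats held 27.8% of all matches, 147 of 532 in constituents with Gfi1 in both tumors and 9 of 36 in constituents without Gfi1, while 17.8% of the bases of constituents were repeats. Outside repeats the rate was 0.93 per 10 kb with Gfi1 in both tumors and 0.65 per 10 kb without Gfi1.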

How the data were processed

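The constituents, gene lists and comparisons were chosen with earlier results of these data known. Per the labels and the study's methods, the authors aligned reads to mm10 with BWA 0.6.2, removed duplicates and called peaks in each library against input with MACS at default settings. The deposited lists give each peak a position and a score of 50.0 or more, which was used only as a percentile within its list. From there, peaks of tumor 39 overlapping tumor 41 by 1 bp were measured to the TSSs of GENCODE M21 (the authors used M9), joined and kept as stated, in Python 3.11.15 with numpy 2.4.6 and scipy 1.17.1. The overlap, TSS distance and joining steps were tested on simulated peak lists, in which the gaps and distances stayed clear of the limits. Gene assignment and the motif search were not simulated. Sequence came from RefSeq GRCm38, and motifs were searched on both strands. Clusters went to the protein-coding gene with the closest TSS, ties to each gene. Genes named were those of the 12 largest clusters, up to 4 per list with a cluster, the 5 clusters at each end of Gfi1 overlap, and the genes the study tested. Tumor numbers pair the Gfi1 and Lsd1 libraries, since both come from one tumor. No model was fitted and no p-value computed. Intervals cover counting error only. A few genes and sequences are not reported here.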

Additional observations from a re-analysis of the deposited data

How the results depend on the processing

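The rule decides how many peaks are clustered. Their number was 1812 at more than 5000 bp from a TSS, 1493 in 398 clusters at a gap of 5000 bp, 4650 in 1602 clusters of 2 or more, 1745 in 321 clusters of 4 or more, and 353 in 96 clusters from the upper 50% of the Lsd1 score. With either Lsd1 replicate left out and the other list used alone, it ran from 4848 to 6068 peaks in 1087 to 1299 clusters.

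The share of constituents with Gfi1 in both tumors was 92.4% in the upper 50% of the Lsd1 score, 44.0% when 50% of the peak had to be covered, 47.5% when its midpoint had to be, and 22.6% and 2.42% with Gfi1 peaks of the upper 50% and 20% of the score. Leaving out 1 library gave 41.9% (without Lsd1 replicate 1) to 79.6% (without Gfi1 replicate 2), but these are unlike measures. Without a Gfi1 replicate the share is that of the other tumor alone. Without an Lsd1 replicate the Lsd1 peaks needed no partner in the other tumor, and Gfi1 was still required in both. In the paired comparison (replicate block), with Lsd1 and the 1 Gfi1 list of the same tumor, the mean share was 71.7%. Across tumors, with no replicate block, it was 72.5%. The difference between clustered and other distal peaks was 4.60 points in the replicate block and 5.69 points across tumors.

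That difference, 5.41 points, was positive under every alternative tried except within groups of like width, where it was -0.64 points. This comparison, that within score groups (2.15 points) and that within GC groups were chosen after seeing the data, as was leaving out clusters across a TSS. It was 2.15 points in the upper 50% of the Lsd1 score, 2.32 points with 50% of the peak covered, 1.38 points with its midpoint covered, and 8.96 and 2.28 points with Gfi1 peaks of the upper 50% and 20%. Leaving out 1 library gave 3.45 points (without Gfi1 replicate 1) to 7.999 points (without Lsd1 replicate 2). The causes of these shifts were not tested.

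With protein-coding genes alone 56.6% of constituents were intronic. Genes with a TSS within 100000 bp of a cluster numbered 2172. The NFI sequence was less common in constituents by -3.70 points in windows of 200 bp and by -5.95 points in 400 bp.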
